A study of Rattus norvegicus with 4 samples.

Results

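Neurexins, neuroligins and leucine-rich repeat transmembrane proteins (LRRTMs) are adhesion molecules that face each other across the synaptic cleft. Of the 3 families, 9 genes were named for this description by their role, and a gene was counted where a probe set of the array is annotated to it alone. That gave 8 genes of the 17245 genes measured: Nrxn2 and Nrxn3, Nlgn1, Nlgn2 and Nlgn3, and Lrrtm2, Lrrtm3 and Lrrtm4. Lrrtm1 was not analysed here. Expression was profiled on 4 arrays of cultured cortical neurons from Sprague Dawley rats at embryonic day 18. Of these, 2 came from neurons infected with pLL3.7 lentivirus carrying PHF6shRNA-2, a short hairpin RNA against the chromatin-associated protein PHF6, and 2 from neurons infected with the same vector carrying a control shRNA. RNA was collected 5 days after infection in each case. The comparison addresses which transcripts differ when neurons carry the PHF6 shRNA. It rests on 1 hairpin, so loss of PHF6 and other effects of that hairpin cannot be told apart, and no uninfected neurons were profiled.

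Neurexins sit mainly in the presynaptic membrane and are made in many forms by alternative promoters and alternative splicing. Neuroligins and LRRTMs sit mainly in the postsynaptic membrane and bind neurexins across the cleft. Such contacts help to organise transmitter release on one side and receptors on the other. The probe set values used here give 1 level per gene and do not separate the splice forms or the long and short neurexins.

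The arrays were alike in scale, with median intensities between 40.9 and 41.7. Background was taken from 201 odorant and pheromone receptor genes, whose 95th percentile ranged from 32.6 to 42.0 intensity units, and 55.8% to 64.5% of genes were brighter than that on an array. Background split by duplicate number. In the PHF6 shRNA and control shRNA arrays it was 40.4 and 42.0 for duplicate 1, and 32.8 and 32.6 for duplicate 2. All 8 neuron markers (Tubb3, Map2 and others) were above background on all 4 arrays, while 5 of 7 microglial markers were above it on none. Phf6 itself read 34.4 and 31.3 intensity units in the PHF6 shRNA arrays and 32.8 and 34.3 in the control shRNA arrays, above background on 1 array, so it does not check the labels. The arrays are called biological duplicates and their descriptions carry exp-1 or exp-2 in each group, without saying whether these were separate animals or cultures. The p-values measure only the spread between these arrays, part of which may be technical. An exact two-sided test of a single gene in 2 against 2 arrays cannot go below p = 0.333, so limma's moderated test over all genes was used.

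All 8 adhesion genes were above background on all 4 arrays. Both neurexins and Lrrtm3 read lower in the PHF6 shRNA arrays without overlap between the groups, and Nlgn2 and Nlgn3 read higher without overlap. Nlgn1, Lrrtm2 and Lrrtm4 overlapped. Without a block on the duplicate number, none of the 8 differences passed the threshold after adjustment over all genes (limma, adjusted p from 0.29 to 0.96). Of all 17245 genes, 0 passed (percent called 0), while 1862 had an unadjusted p under 0.05. Groups without overlap are common in these arrays, at 37.8% of all genes, so 5 of 8 adhesion genes are to be read against that share. Leaving out PHF6 shRNA duplicate 2 brought 90 genes past the adjusted threshold and leaving out PHF6 shRNA duplicate 1 brought 2, with none of the 8 among them.

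The 2 neurexin genes gave the largest differences of the 8. Nrxn3, a presynaptic receptor for neuroligins, LRRTMs and cerebellins, read 7.14 and 7.02 log2 units in the PHF6 shRNA arrays, against 7.54 and 7.39 in the control shRNA arrays. Every PHF6 shRNA array lay below every control shRNA array, and the duplicates of a group lay closer to each other than to the other group. The difference was -0.38 ± 0.10 log2 units (SE), or 1.30-fold, with a 95% interval from -0.63 to -0.14 (limma adjusted p = 0.29, unadjusted p = 0.0095). Of all genes, 4.9% differed by more than Nrxn3 in size.

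Nrxn2, its paralog, read 8.24 and 8.53 log2 units in the PHF6 shRNA arrays, against 8.67 and 8.82 in the control shRNA arrays. The groups were separate, but PHF6 shRNA duplicate 2 lay closer to control shRNA duplicate 1 than to PHF6 shRNA duplicate 1. The difference was -0.36 ± 0.13 log2 units (SE), with a 95% interval from -0.68 to -0.04 (limma adjusted p = 0.41, unadjusted p = 0.033). A second, dimmer probe set annotated to Nrxn2 did not follow it. That probe set read 6.51 and 6.63 log2 units in the PHF6 shRNA arrays, against 6.56 and 6.46 in the control shRNA arrays. Its groups overlapped, and its difference was 0.06 ± 0.09 log2 units (SE). Averaging both probe sets brought the Nrxn2 difference to -0.15 log2 units (limma adjusted p = 0.74). Which part of the gene each probe set covers was not analysed here.

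Among the postsynaptic neuroligins none had an unadjusted p under 0.05. Nlgn3, an X-linked gene whose product is found at glutamatergic and GABAergic synapses, read 9.14 and 9.38 log2 units in the PHF6 shRNA arrays, against 9.04 and 9.12 in the control shRNA arrays. Its groups did not overlap, and the nearest arrays of the 2 groups were PHF6 shRNA duplicate 1 and control shRNA duplicate 2. The difference was 0.18 ± 0.11 log2 units (SE), with an interval from -0.10 to 0.46 (limma adjusted p = 0.71). Nlgn2, the neuroligin of inhibitory synapses, read 8.53 and 8.45 log2 units in the PHF6 shRNA arrays, against 8.44 and 8.43 in the control shRNA arrays. These groups were just separate, with a difference of 0.05 ± 0.08 log2 units (SE) and an interval from -0.16 to 0.26. Nlgn1, the neuroligin of excitatory synapses, read 8.05 and 8.24 log2 units in the PHF6 shRNA arrays, against 8.09 and 8.53 in the control shRNA arrays. The spread between the control shRNA duplicates of Nlgn1 exceeded the difference of the means, -0.17 ± 0.16 log2 units (SE, interval from -0.58 to 0.24). Without control shRNA duplicate 2 the Nlgn1 difference was 0.05 log2 units.

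The LRRTM genes encode postsynaptic proteins of excitatory synapses. Lrrtm3 read 8.10 and 8.28 log2 units in the PHF6 shRNA arrays, against 8.54 and 8.46 in the control shRNA arrays. Both PHF6 shRNA arrays lay below both control shRNA arrays, with a difference of -0.31 ± 0.10 log2 units (SE), an interval from -0.55 to -0.06 and a limma adjusted p of 0.38 (unadjusted p = 0.024). Lrrtm2, a ligand of neurexins, read 9.43 and 8.93 log2 units in the PHF6 shRNA arrays, against 9.13 and 8.96 in the control shRNA arrays. PHF6 shRNA duplicate 1 was the highest Lrrtm2 value and PHF6 shRNA duplicate 2 the lowest, so the groups overlapped, with a difference of 0.14 ± 0.18 log2 units (SE, interval from -0.31 to 0.58). Without PHF6 shRNA duplicate 1 the Lrrtm2 difference was -0.11 log2 units. Lrrtm4, which binds heparan sulfate on glypicans and neurexins, read 6.88 and 7.04 log2 units in the PHF6 shRNA arrays, against 7.01 and 7.06 in the control shRNA arrays. These groups overlapped, with a difference of -0.08 ± 0.09 log2 units (SE, interval from -0.31 to 0.16), and the difference was 0.003 log2 units without PHF6 shRNA duplicate 1.

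**Figure D1:**
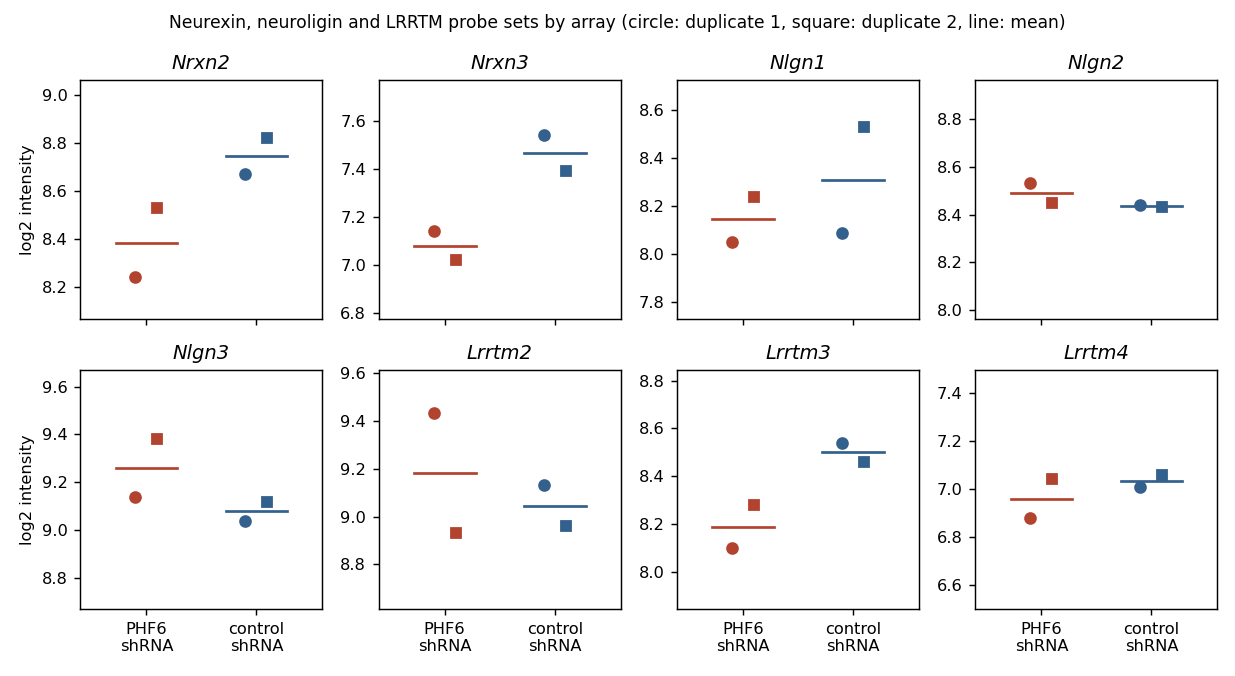
Log2 intensity (vertical axis, each panel spanning 1 log2 unit around its gene's mean) of the 8 adhesion genes in the PHF6 shRNA and control shRNA arrays, with circles for duplicate 1, squares for duplicate 2 and a line at the mean of each group. Nrxn2, Nrxn3 and Lrrtm3 lie lower in the PHF6 shRNA arrays without overlap, Nlgn2 and Nlgn3 lie higher without overlap, and Nlgn1, Lrrtm2 and Lrrtm4 overlap.

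In the rat annotation Lrrtm2 and Lrrtm3 overlap alpha-catenin genes, Ctnna1 and Ctnna3. The host of Lrrtm3, Ctnna3, was above background on none of the 4 arrays, so its own signal gave no level to set beside that of Lrrtm3. Ctnna1 read 6.20 and 7.01 log2 units in the PHF6 shRNA arrays, against 6.43 and 6.85 in the control shRNA arrays. In both groups Ctnna1 was higher in duplicate 2, where Lrrtm2 was lower.

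Of the 8 adhesion genes, 6 had a promoter window in the RefSeq table (GRCr8, 250 bases before to 50 after the start). The windows shown belong to a gene that read lower without overlap (Lrrtm3, chr20:24514054-24514353, + strand), a gene that read higher without overlap (Nlgn3, chrX:70469228-70469527, + strand) and a gene whose groups overlapped (Lrrtm2, chr18:27096918-27097217, - strand). Capitals mark matches, on either strand, to the cyclic AMP response element TGACGTCA, the box CCAAT, the box GGGCGG or the box TATAAA.
Lrrtm3: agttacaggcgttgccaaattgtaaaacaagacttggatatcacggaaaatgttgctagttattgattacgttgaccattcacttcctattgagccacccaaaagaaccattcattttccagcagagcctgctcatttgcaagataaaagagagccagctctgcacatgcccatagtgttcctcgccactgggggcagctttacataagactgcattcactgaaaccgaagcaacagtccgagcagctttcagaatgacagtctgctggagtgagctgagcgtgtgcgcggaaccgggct
Nlgn3: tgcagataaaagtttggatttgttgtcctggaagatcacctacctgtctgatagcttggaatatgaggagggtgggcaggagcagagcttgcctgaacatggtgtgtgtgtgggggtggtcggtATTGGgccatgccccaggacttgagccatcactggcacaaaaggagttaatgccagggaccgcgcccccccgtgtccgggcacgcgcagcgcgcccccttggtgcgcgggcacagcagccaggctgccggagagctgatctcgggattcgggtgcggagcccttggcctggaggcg
Lrrtm2: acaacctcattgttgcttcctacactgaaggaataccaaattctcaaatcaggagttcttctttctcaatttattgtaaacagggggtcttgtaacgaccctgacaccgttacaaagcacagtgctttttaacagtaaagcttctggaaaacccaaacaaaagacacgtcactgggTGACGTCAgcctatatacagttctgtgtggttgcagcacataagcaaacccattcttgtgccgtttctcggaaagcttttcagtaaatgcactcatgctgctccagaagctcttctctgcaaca
The Lrrtm2 window holds TGACGTCA beginning 74 bases before the start, as do 1.83% of the 33469 promoter windows in the table. The Nlgn3 window holds CCAAT on the opposite strand 126 bases before the start, as do 37.49% of windows on either strand. The Lrrtm3 window holds none of the 4 motifs. In base composition the Nlgn3 window was 61.7% G or C, against 47.7% in Lrrtm3, 43.0% in Lrrtm2 and a median of 51.7% over all windows. Nlgn1 and Lrrtm4, whose groups overlapped, had 43.3% and 46.3%. Nrxn2 and Nrxn3 had no window, so Lrrtm3 alone stands for the genes that read lower without overlap. Nlgn2, also higher without overlap, had 67.3% G or C and 3 matches to GGGCGG, a box found in 33.06% of windows. These matches are descriptions of the letters, and no binding was measured.

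As a group, 5 of the 8 adhesion genes had a lower mean in the PHF6 shRNA arrays, as had 52.3% of all genes, and their median difference was -0.12 log2 units against -0.007 over all genes. Without overlap, 3 were lower and 2 higher, against 21.7% of all genes lower and 16% higher. An unadjusted p under 0.05 was reached by 3 of the 8, all lower, where 10.8% of all genes reached it in either direction, 7.52% lower and 3.28% higher. Without PHF6 shRNA duplicate 1 fewer of the 8 reached an unadjusted p under 0.05, and so did fewer of all genes. Genes of similar brightness were more often lower than genes in general. Among the 4189 genes whose mean lay within the range of the adhesion genes, from 7.00 to 9.17 log2 units, 65.8% were lower, 52.1% had groups that did not overlap, 23.7% had an unadjusted p under 0.05 and the median difference was -0.09. Under cyclic loess scaling the median of those genes was 0.00, and Nrxn3, Nrxn2 and Lrrtm3 were at -0.30, -0.27 and -0.22 log2 units. The higher genes moved further up under it, with Nlgn3, Lrrtm2 and Nlgn2 at 0.26, 0.22 and 0.14 log2 units. Nlgn1 was then at -0.08 and Lrrtm4 showed almost no difference. With that scaling 2 of the 8 had an unadjusted p under 0.05 (limma). The part of this brightness trend in the adhesion gene differences was not tested otherwise. The split of genes with an unadjusted p under 0.05 also moved with scaling, with 69.7% lower as reported, 54.5% lower after a further quantile normalization and 48.2% lower after cyclic loess.

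**Figure D2:**
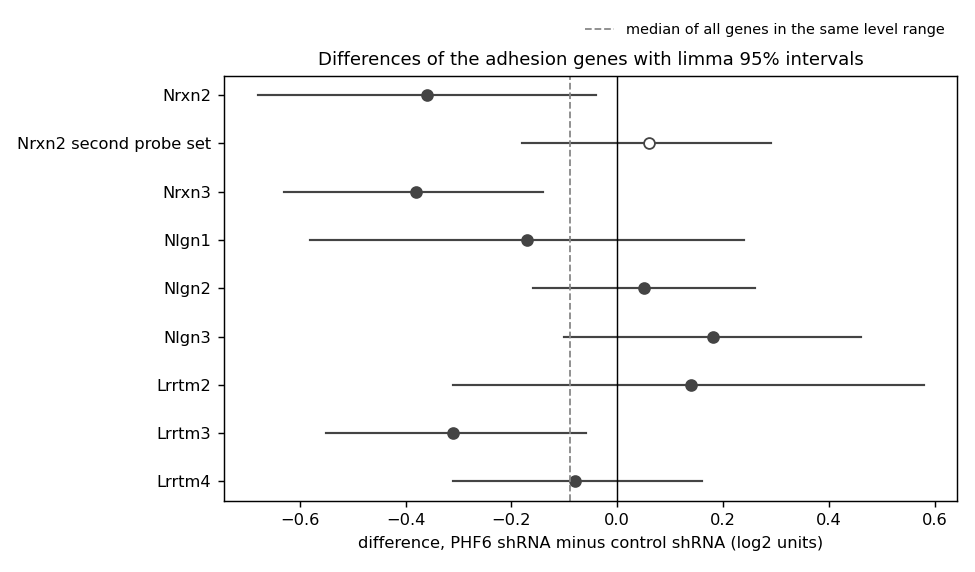
Difference of each adhesion gene as PHF6 shRNA minus control shRNA (horizontal axis, log2 units), with limma's 95% interval as a line and the second Nrxn2 probe set as an open circle. The intervals of Nrxn2, Nrxn3 and Lrrtm3 lie below 0, the other 5 genes and the second Nrxn2 probe set cross it, and the dashed line marks the median of -0.09 of genes in the same level range.

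Differences between duplicates were as large as those between groups for several of the 8. Duplicate 2 minus duplicate 1 had the same sign in both groups for 7 of the 8 genes. Nlgn1 was higher in duplicate 2 by 0.19 log2 units under PHF6 shRNA and by 0.43 under control shRNA. Nrxn3 ran the other way, at -0.12 under PHF6 shRNA and -0.15 under control shRNA. Lrrtm2 fell by 0.50 log2 units in duplicate 2 under PHF6 shRNA and by 0.16 under control shRNA, and Lrrtm3 alone differed in sign, at 0.18 and -0.08.

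Cell type markers were read beside the adhesion genes, and none passed after adjustment over all genes. The summed intensity of the 8 neuron markers was 10755 and 11079 in the PHF6 shRNA arrays, against 12107 and 12156 in the control shRNA arrays, and 7 of 8 had a lower mean (median difference -0.15 log2 units). That median was -0.11 after a further quantile normalization and -0.09 under cyclic loess. These markers read between 8.79 and 11.22 log2 units, and the part of scaling in their differences was not tested. Nefl and Tubb3 had an unadjusted p under 0.05 (limma), at -0.65 ± 0.21 and -0.22 ± 0.08 log2 units (SE). All 6 measured astrocyte markers had a higher mean, with summed intensities of 967 and 1482 in the PHF6 shRNA arrays, against 654 and 1194 in the control shRNA arrays. Those sums overlapped, and the median of 0.20 log2 units ran from -0.07 without PHF6 shRNA duplicate 2 to 0.69 without PHF6 shRNA duplicate 1. Slc1a2 and Aldoc, an astrocytic glutamate transporter and a glycolytic enzyme, were the 2 astrocyte markers with an unadjusted p under 0.05, at 0.98 ± 0.20 and 0.61 ± 0.18 log2 units (SE). Gfap and Slc1a3 differed by only 0.01 ± 0.29 and 0.12 ± 0.55 log2 units (SE). Gfap and Aqp4 were each above background on 2 of the 4 arrays. The median of the excitatory neuron markers was 0.06, and 0.003 without PHF6 shRNA duplicate 1. Of the 5 measured, 1 had a lower mean, Slc17a6. It differed by -0.69 ± 0.11 log2 units (SE, limma unadjusted p = 0.0013, adjusted p = 0.23). The median of the GABAergic neuron markers was 0.14, with a range from -0.04 without control shRNA duplicate 2 to 0.23 without PHF6 shRNA duplicate 2. Oligodendrocyte lineage, microglial, and endothelial and mural markers had medians between -0.03 and 0.08. Dividing progenitor markers had a median of -0.02, which was -0.36 without PHF6 shRNA duplicate 2 but 0.37 when PHF6 shRNA duplicate 1 was left out. Among them only Hes5 had an unadjusted p under 0.05 (limma), at 0.29 ± 0.09 log2 units (SE). In bulk cultures, fewer cells of a type and less RNA per cell cannot be told apart. The part of the marker differences in the adhesion gene differences was not tested.

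Partners of the 3 families and related genes were read from 4 lists, called partner lists for short, of which 85 of 90 genes were measured. Only the extracellular and intracellular lists hold partners. The others hold synaptic organizers that act beside the 3 families, and splicing factors and proteases. Of the 85, none passed after adjustment (limma, smallest adjusted p = 0.23). An unadjusted p under 0.05 was reached by 23 (14 lower and 9 higher), and 42 had a lower and 43 a higher mean. That share of 27.1% stands beside 10.8% of all genes and 23.7% of genes in the level range of the adhesion genes. Among the 23 were 3 extracellular and 4 intracellular partners. The listed genes spread more widely, from 4.51 to 12.17 log2 units on single arrays, so neither share is matched to their level.

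Extracellular partners numbered 11 higher and 7 lower of 18 (median difference 0.10 log2 units). An unadjusted p under 0.05 was reached by 3 (16.7%), beside 10.8% of all genes and 23.7% in the level range of the adhesion genes. The median was 0.02 without PHF6 shRNA duplicate 1 and 0.05 without control shRNA duplicate 2. The count under 0.05 moved when 1 array was left out, as did the count over all genes. Gpc4, a glypican that binds LRRTM4, read 6.10 and 5.88 log2 units in the PHF6 shRNA arrays, against 5.48 and 5.50 in the control shRNA arrays. Cbln2, a secreted cerebellin that binds neurexins, read 5.52 and 5.64 log2 units in the PHF6 shRNA arrays, against 5.94 and 5.98 in the control shRNA arrays. Neither pair of groups overlapped, and the differences were 0.50 ± 0.10 and -0.38 ± 0.09 log2 units (SE, limma adjusted p = 0.24 and 0.27). C1ql3, a secreted protein of the C1q family, read 8.25 and 7.61 log2 units in the PHF6 shRNA arrays, against 7.37 and 7.37 in the control shRNA arrays. PHF6 shRNA duplicate 1 stood apart for C1ql3, whose difference of 0.56 ± 0.21 log2 units (SE, limma adjusted p = 0.43) was 0.24 without PHF6 shRNA duplicate 1 (limma adjusted p = 0.85) and 0.89 without PHF6 shRNA duplicate 2 (limma adjusted p = 0.03). The latrophilin gene Adgrl2 differed by -0.50 ± 0.21 log2 units (SE, interval from -1.02 to 0.02, unadjusted p = 0.058). Without PHF6 shRNA duplicate 1 its difference was -0.21, and without PHF6 shRNA duplicate 2 it was -0.78.

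Intracellular partners numbered 9 lower and 8 higher of 17 (median difference -0.01 log2 units). The 4 with an unadjusted p under 0.05 are named here, or 23.5%, beside 10.8% of all genes and 23.7% in the level range of the adhesion genes. Without PHF6 shRNA duplicate 1 fewer reached it, in the list and among all genes. Cask, a scaffold kinase that binds the tails of neurexins, read 9.35 and 9.44 log2 units in the PHF6 shRNA arrays, against 9.72 and 9.72 in the control shRNA arrays. Lin7b, which joins CASK in a presynaptic scaffold, went the other way, with 7.07 and 7.05 log2 units in the PHF6 shRNA arrays, against 6.67 and 6.74 in the control shRNA arrays. Sdcbp, the PDZ protein syntenin, read 9.21 and 9.14 log2 units in the PHF6 shRNA arrays, against 8.13 and 8.64 in the control shRNA arrays. Cask and Lin7b, both picked for small p, thus differed in sign, at -0.33 ± 0.08 and 0.36 ± 0.08. Sdcbp was at 0.79 ± 0.17 (log2 units, SE, limma adjusted p from 0.25 to 0.29 for these genes). Of the other listed genes, Lin7a and Lin7c differed by 0.38 ± 0.21 and -0.01 ± 0.09 log2 units (SE). Apba1 and Apba2 differed by -0.06 ± 0.08 and -0.12 ± 0.08 log2 units (SE). The postsynaptic scaffold gene Shank3 differed by -0.24 ± 0.09 log2 units (SE).

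Other synaptic organizers, adhesion molecules that act beside the 3 families, were lower in 19 and higher in 19 of 38. Of the 11 with an unadjusted p under 0.05, 8 were lower. Their share was 28.9%, beside 10.8% of all genes and 23.7% in the level range of the adhesion genes. Without PHF6 shRNA duplicate 1 fewer reached it, in the list and among all genes. Elfn2, a leucine-rich repeat protein that binds metabotropic glutamate receptors, read 7.13 and 7.13 log2 units in the PHF6 shRNA arrays, against 7.69 and 7.86 in the control shRNA arrays. Flrt3, a ligand of latrophilins, read 7.37 and 7.53 log2 units in the PHF6 shRNA arrays, against 7.98 and 8.16 in the control shRNA arrays. Both genes were separate by more than the spread of either group, at -0.65 ± 0.10 and -0.63 ± 0.11 log2 units (SE, limma adjusted p = 0.23 each). The adhesion G protein-coupled receptor genes Adgrb3 and Adgrb1 differed by -0.40 ± 0.09 and -0.38 ± 0.10 log2 units (SE).

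The last list held RNA-binding proteins that act in neuronal splicing and proteases that cleave adhesion molecules, with 7 lower and 5 higher of 12. Of these, 5 had an unadjusted p under 0.05 (41.7%), beside 10.8% of all genes and 23.7% in the level range of the adhesion genes. Fewer did when PHF6 shRNA duplicate 1, PHF6 shRNA duplicate 2 or control shRNA duplicate 1 was left out. The count over all genes also fell without PHF6 shRNA duplicate 1 or control shRNA duplicate 1. The list's median of -0.04 log2 units ran from -0.17 without PHF6 shRNA duplicate 2 to 0.05 without PHF6 shRNA duplicate 1. Rbfox1, a neuronal splicing factor, read 8.37 and 8.37 log2 units in the PHF6 shRNA arrays, against 8.93 and 8.91 in the control shRNA arrays. Duplicates of Rbfox1 nearly coincided, and the difference was -0.55 ± 0.08 log2 units (SE, limma adjusted p = 0.23). Its paralog Rbfox2 differed by -0.36 ± 0.09 log2 units (SE). Khdrbs2, also called SLM1, which regulates neurexin splicing in mouse, read 7.05 and 6.83 log2 units in the PHF6 shRNA arrays, against 7.43 and 7.23 in the control shRNA arrays. Those groups did not overlap, with a difference of -0.39 ± 0.12 log2 units (SE, limma adjusted p = 0.36). Ptbp2, a splicing repressor of developing neurons, differed by 0.31 ± 0.09 log2 units (SE). Splice forms themselves were not measured.

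**Figure D3:**
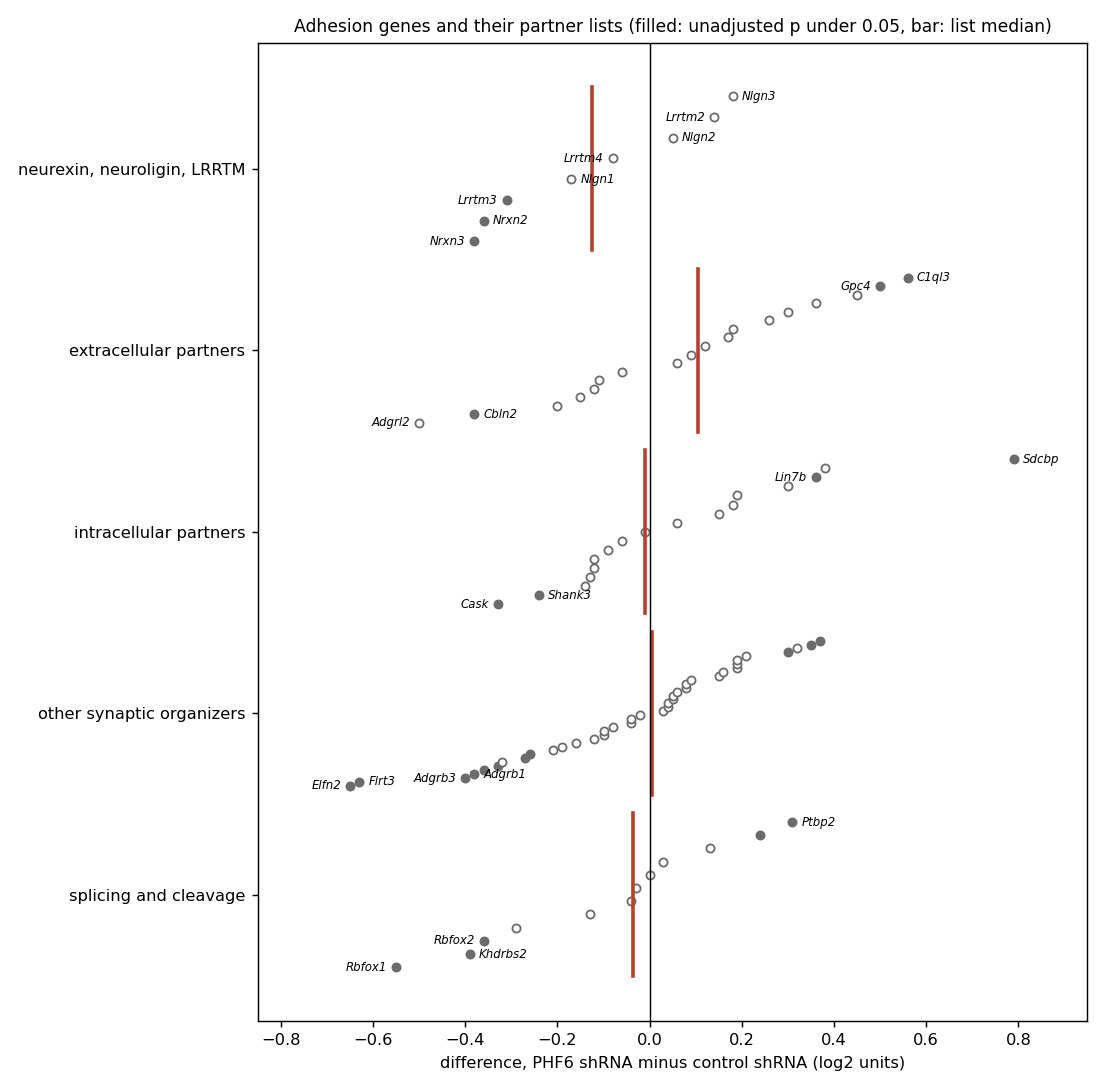
Difference of each gene as PHF6 shRNA minus control shRNA (horizontal axis, log2 units), for the 8 adhesion genes and 4 partner lists, with filled points for an unadjusted p under 0.05 and a red bar at each list's median. The list medians lie between -0.12 and 0.10, and single genes reach 0.79 (Sdcbp) and -0.65 (Elfn2).

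Where the groups did not overlap, leaving out 1 array cannot turn the sign, so only the size is informative. With each array left out in turn, Nrxn3 ran from -0.46 to -0.31, Nrxn2 from -0.50 to -0.22 (without PHF6 shRNA duplicate 1) and Lrrtm3 from -0.39 to -0.22 log2 units. Nlgn3 ran from 0.06 to 0.30 and Nlgn2 from 0.01 to 0.09, with the lowest Nlgn3 value without PHF6 shRNA duplicate 2 and the lowest Nlgn2 value without PHF6 shRNA duplicate 1.

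**Figure D4:**
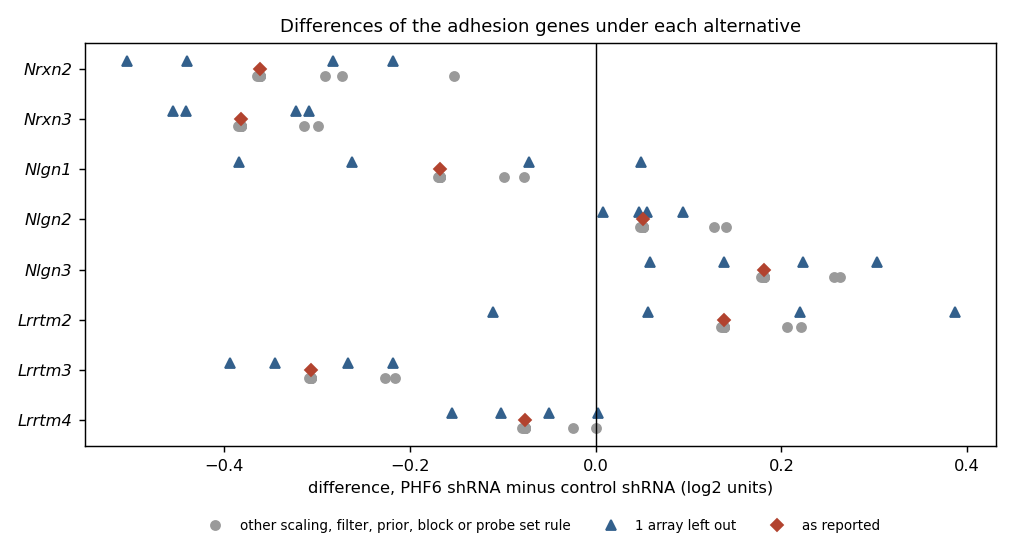
Difference of each adhesion gene as PHF6 shRNA minus control shRNA (horizontal axis, log2 units), as reported (diamonds), with 1 array left out (triangles) and under other scalings, filters, priors, a block or another probe set rule (circles). Nrxn2, Nrxn3 and Lrrtm3 lie below 0 and Nlgn2 and Nlgn3 above 0, which non-overlapping groups fix for the triangles, while Nlgn1, Lrrtm2 and Lrrtm4 have values on both sides of 0.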

How the data were processed

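Total RNA from cultured rat cortical neurons was hybridised to 1-colour whole-transcript arrays, 1 per sample, per the labels' protocols. The deposited values are probe set intensities that the authors made with RMA, per the submitters' processing notes. Its version is not given in the sources used here. The intensities, from 8.57 to 6121, are linear, so log2 was taken first. Differences of dim probe sets are compressed by RMA.

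Of 29214 probe sets, 18644 carry 1 gene symbol in the platform annotation. They gave 17245 genes, each represented by the probe set with the highest mean log2 intensity. Names were updated through the gene identifier to RefSeq (GRCr8) for 18460 probe sets. Groups were taken from the titles. The test was limma's moderated test (version 3.58.1, R 4.3.3), 2-sided and without covariates, and p-values were adjusted by Benjamini-Hochberg across the 17245 genes (threshold 0.05). With 2 arrays per group the number of arrays limits the precision.

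The adhesion genes, the partner and marker lists, the tests and the 13 alternatives were chosen with earlier results of these data known. Besides all adhesion genes and Phf6, the naming rule took the 4 genes with the smallest unadjusted p in each partner list. The markers Slc1a2, Aldoc, Gfap, Aqp4, Slc1a3, Slc17a6, Nefl, Tubb3 and Hes5 were named after their values were seen. So were Ctnna1, Ctnna3, Lin7a, Lin7c, Apba1 and Apba2. A gene counted as above background on an array when it exceeded the 95th percentile of 201 odorant and pheromone receptor genes there.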

Additional observations from a re-analysis of the deposited data

How the results depend on the processing

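Over 13 alternatives, 99 of 104 differences of the 8 adhesion genes kept their direction and their side of the adjusted threshold. Many of these directions were fixed in advance, so the tally does not measure robustness. The block, the other priors and the gene filters change the test but not the difference. Leaving out 1 array could not turn the sign of the 5 adhesion genes whose groups did not overlap. With the duplicate number as a replicate block, Nrxn2 (-0.361, limma adjusted p = 0.046) and Nrxn3 (-0.382, limma adjusted p = 0.034) passed. So did 909 genes in all and 11 of the 16 genes picked for small p from the partner lists. The sample descriptions give exp-1 and exp-2 in each group, which may mark a shared experiment, but no label states it, and whether the numbers pair the arrays was not settled. In the block fit 684 genes differed by duplicate number at the adjusted threshold. Duplicate differences of the 2 groups correlated at 0.571 across genes, which are not independent replicates. With 1 array left out, where the lone array is assumed to vary like the other group, 0 to 90 genes passed. Those fits reversed Lrrtm2 (-0.11 to 0.387), Lrrtm4 (-0.155 to 0.003) and Nlgn1 (-0.384 to 0.049). The cause of these changes was not tested. The 16 genes picked for small p from the partner lists had groups that did not overlap, so leaving out 1 array could not turn their sign. Differences of dim genes are compressed by RMA, which limits what their signal over background can show.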
